A study of Mus musculus with 16 samples.

Results

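Airway mucins and the regulators of goblet cells were described as a set of 10 genes, chosen by symbol among 49315 gene identifiers. The set holds the gel-forming mucins Muc5ac and Muc5b, the membrane mucins Muc1, Muc4, Muc15, Muc16 and Muc20, and the goblet cell regulators Agr2, Spdef and Foxa3. All 10 were found in the table of counts. Of these, 9 passed the filter on low counts and were among the 15993 genes tested, and Muc15 did not pass.

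RNA was sequenced from 16 murine tracheal epithelial cell cultures (MTECs), which are primary airway cells grown with air above and medium below until ciliated and secretory cells form. The cultures were made from male and female mice, WT or KO for LMAN1, a cargo receptor that carries glycoproteins out of the endoplasmic reticulum. The KO line was on a C57BL/6J background and was compared with WT littermates. Cultures were left naive or received house dust mite extract (HDM) at 20 µg/ml overnight, which gives the 8 groups male WT naive, male WT HDM, male KO naive, male KO HDM, female WT naive, female WT HDM, female KO naive and female KO HDM with 2 libraries each. Cells were pooled from several tracheas and plated on inserts coated with a basement membrane made by 3T3 cells, and the ages of the animals are not given in the sources used here. The labels call the replicates biological without saying which animals each came from, so p-values measure the spread between cultures.

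Libraries held 21860698 to 43442188 counts, and the 4 female HDM libraries were among the shallower, at 21860698 to 27380220. Levels are given as CPM, counts relative to a common library size, scaled by the trimmed mean of M values (TMM). Xist lay at 94.2 to 242 CPM in the 8 female libraries and at 0.977 to 3.6 CPM in the 8 male libraries, as labelled. Lman1 lay at 101 to 144 CPM in the WT libraries. In libraries labelled KO it lay at 14.2 and 63.4 CPM in male naive, 65 and 66 CPM in male HDM, 12.8 and 12.8 CPM in female naive and 66.6 and 78.1 CPM in female HDM cultures. Of these 8 libraries 5 lay above 20% of the mean of the WT libraries, 121 CPM, among them all 4 HDM libraries, at 53.9% to 64.8%. The label of these 5 libraries is therefore in doubt, and which part of the gene is deleted is not given in the sources used here. The doubt touches comparisons of KO with WT under HDM and in male naive cultures, and those of male with female KO cultures, naive or with HDM. It also touches the HDM responses of KO cultures and every interaction that uses them. Lman1 itself was called higher with HDM in female KO cultures (5.66-fold, adjusted p = 0.00744, edgeR), so the naive and HDM libraries of that response differ in Lman1 as well as in treatment.

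Mucus in the airway is built from long, heavily glycosylated proteins. Muc5ac and Muc5b are secreted by goblet and club cells and form the gel, while the membrane mucins stay anchored at the apical surface among cilia and microvilli. Spdef and Foxa3 are transcription factors that drive the goblet cell programme downstream of type 2 cytokines, and Agr2 is a disulfide isomerase of the endoplasmic reticulum that goblet cells need to fold mucins.

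Promoter sequence was at hand for 7 of the 10 genes, from RefSeq on GRCm38.p6, and 3 are shown for members whose response to HDM in female WT cultures, given below, was among the steepest (Agr2, Muc1) and the shallowest (Muc20). Each is the stretch before the start of transcription, written 5′ to 3′ on the strand of the gene, and capitals mark a match to the forkhead (FOX) motif TGTTTNC on either strand. The Agr2 stretch is chr12:35992675-35992906 on the plus strand, that of Muc1 is chr3:89228806-89229055 on the plus strand, and that of Muc20 is chr16:32797436-32797685 on the minus strand.
Agr2: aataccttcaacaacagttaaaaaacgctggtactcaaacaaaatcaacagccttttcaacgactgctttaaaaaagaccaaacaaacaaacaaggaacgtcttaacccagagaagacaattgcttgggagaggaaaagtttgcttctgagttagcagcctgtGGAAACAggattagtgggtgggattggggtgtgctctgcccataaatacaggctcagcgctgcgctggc
Muc1: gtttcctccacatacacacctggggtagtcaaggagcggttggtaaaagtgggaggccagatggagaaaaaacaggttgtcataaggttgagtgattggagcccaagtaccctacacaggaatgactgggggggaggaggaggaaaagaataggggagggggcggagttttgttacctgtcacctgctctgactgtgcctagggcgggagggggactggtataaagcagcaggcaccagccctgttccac
Muc20: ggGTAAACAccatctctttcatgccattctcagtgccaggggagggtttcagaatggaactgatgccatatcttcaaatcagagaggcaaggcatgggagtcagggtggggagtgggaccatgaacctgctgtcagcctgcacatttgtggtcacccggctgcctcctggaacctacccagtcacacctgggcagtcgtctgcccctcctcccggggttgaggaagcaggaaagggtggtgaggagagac
The FOX letters occurred in the promoters of Agr2 and Muc20 and in 17.8% of 32851 promoters. The letters searched for SPDEF (CCGGAT, in 4.94% of promoters), STAT6 (TTCNNNNGAA, in 5.85%) and AP-1 (TGANTCA, in 6.75%) occurred in none of the 7 on either strand. The FOX match was thus present both in the gene with the largest and in the gene with the smallest fitted response among the tested members, and absent from that of Muc1.

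Levels of different genes were compared as CPM per kilobase of exon over the 8 naive libraries. Muc1 was highest at 221 ± 43.7 CPM per kilobase (SD, n = 8), followed by Agr2 at 67.4 ± 8.68 and Muc4 at 20.5 ± 7.76, and the ranges of these 3 did not overlap. Muc20 at 6.84 ± 1.84, Muc5b at 4.33 ± 1.61, Muc16 at 1.96 ± 0.92 and Spdef at 1.67 ± 0.366 CPM per kilobase formed a series in which each range overlapped that of the next gene. Muc5ac at 0.321 ± 0.118 and Foxa3 at 0.254 ± 0.0751 CPM per kilobase overlapped each other and lay below Spdef without overlap. Muc15 was lowest at 0.0288 ± 0.0154 CPM per kilobase, from 1 to 5 counts per library. Among the gel-forming mucins, Muc5b exceeded Muc5ac per kilobase in every library, by 7.98 to 21.5 times in naive cultures.

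Of the gel-forming mucins, Muc5b lay at 83.7 and 55.8 CPM in female WT naive libraries and at 1.58 and 1.85 CPM in female WT HDM libraries. In female KO cultures it lay at 61.2 and 33.8 CPM without and at 2.5 and 3.87 CPM with HDM. The 4 female HDM libraries lay below every other library. Male WT libraries held 93.1 and 38.5 CPM of Muc5b when naive and 39.8 and 34.4 CPM with HDM, and male KO libraries held 54.5 and 97.6 CPM when naive and 56.7 and 99.8 CPM with HDM. Naive and HDM libraries overlapped within each male genotype, while both male WT HDM libraries lay below every male KO library. Under HDM the KO minus WT difference in males was not called (1.08 ± 0.44, edgeR adjusted p = 0.236). Replicates within a male group lay as far apart as 93.1 and 38.5 CPM. Muc5b fell 40.6-fold in female WT cultures (log2 fold change -5.34 ± 0.60 SE, adjusted p = 3.88e-05) and 14.8-fold in female KO cultures (-3.89 ± 0.54, adjusted p = 0.00159), both by the quasi-likelihood test of edgeR, with p adjusted over all tested genes after Benjamini and Hochberg. In these bulk libraries, fewer secretory cells and less RNA per cell cannot be told apart.

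Muc5ac, the gel-forming mucin most tied to type 2 inflammation, was scarcer throughout. It lay at 2.8 and 2.11 CPM in female WT naive, 0.416 and 0.189 CPM in female WT HDM, 2.88 and 2.32 CPM in female KO naive and 0.525 and 0.609 CPM in female KO HDM libraries. As with Muc5b, the female HDM libraries lay below all others. Male WT libraries held 6.1 and 3.47 CPM when naive and 3.75 and 3.24 CPM with HDM, against 4 and 3.91 CPM and then 2.5 and 3.68 CPM in male KO libraries. Muc5ac fell 7.85-fold in female WT cultures (-2.97 ± 0.41, adjusted p = 0.000158, edgeR) and 4.56-fold in female KO cultures (-2.19 ± 0.36, adjusted p = 0.00385). The female WT HDM values rest on 10 and 4 counts. Muc5b per kilobase was 2.73 to 7.01 times Muc5ac in the female HDM libraries and 10.5 to 21.5 times in the female naive libraries, ranges that did not overlap. Both mucins carry internal repeats, and 23.2% of the 50-base windows of the Muc5ac transcript and 21.9% of those of Muc5b recur within the same transcript, so their counts depend on how reads with several matches were treated, which is not given in the sources used here.

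**Figure D1:**
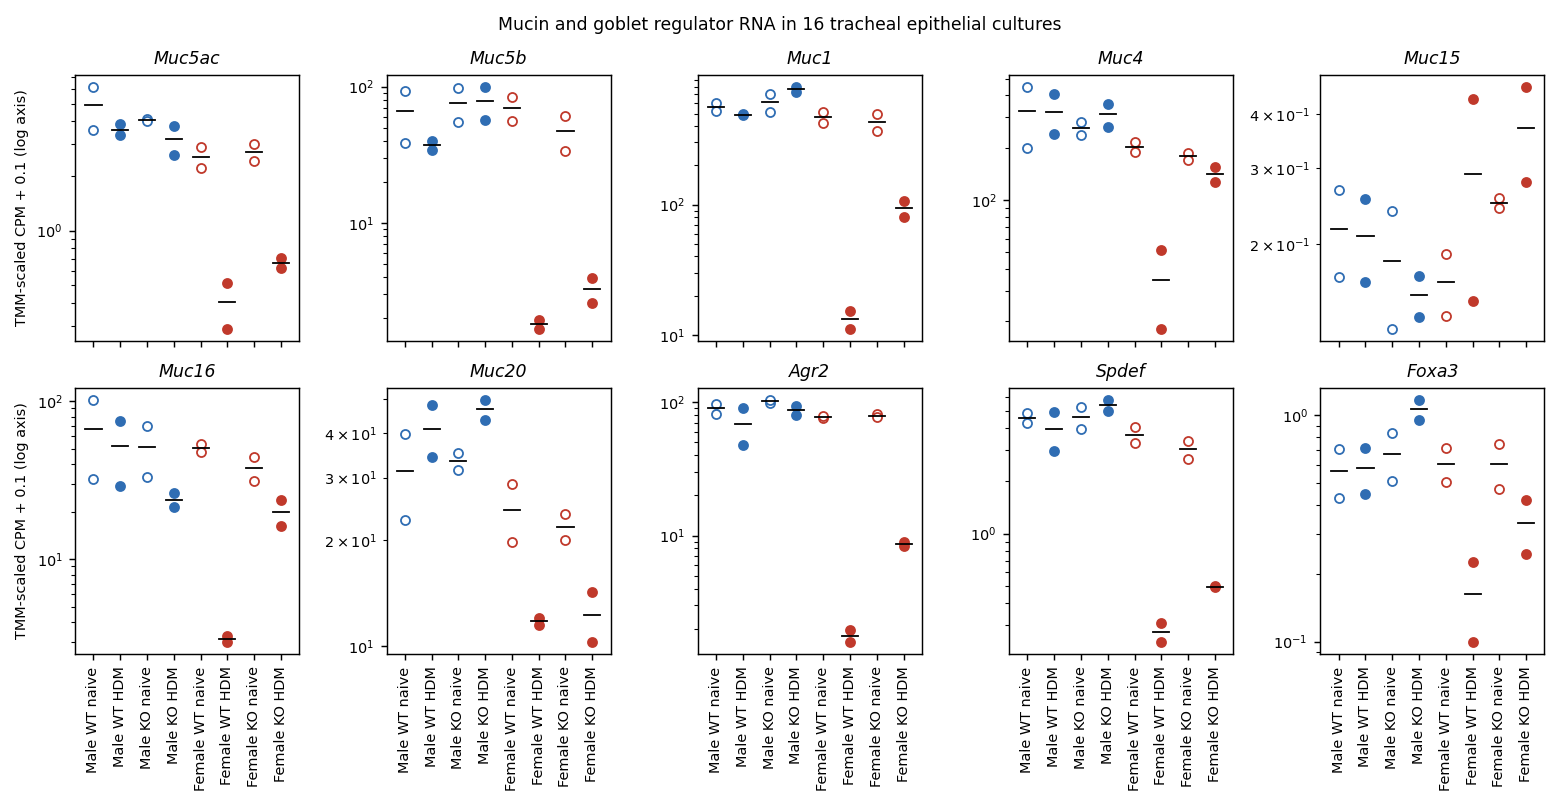
TMM-scaled CPM plus 0.1, on a log axis, of the 10 genes in each of the 16 libraries by group, with open points for naive and filled points for HDM cultures, blue for male and red for female, and a bar at the mean of the 2 libraries. For 8 of the 10 genes the 4 female HDM libraries lie below the 12 others, the exceptions being Muc15 and Muc16. The share of all tested genes that separate in this way was not counted.

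Muc1, a membrane mucin of most glandular epithelia, was the most abundant member. It lay at 517 and 421 CPM in female WT naive libraries, at 11.1 and 15.2 CPM in female WT HDM libraries, at 498 and 370 CPM in female KO naive libraries and at 107 and 79.8 CPM in female KO HDM libraries. The KO HDM libraries thus held more than the WT HDM libraries without overlap, and both groups lay below the naive ones. Male libraries ranged from 486 to 804 CPM under all conditions. Muc1 fell 35.7-fold in female WT (-5.16 ± 0.25, adjusted p = 1.38e-07, edgeR) and 4.66-fold in female KO cultures (-2.22 ± 0.21, adjusted p = 0.000257).

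Muc16, a very large membrane mucin of ciliated and other surface epithelia, lay at 53.5 and 47.8 CPM in female WT naive and at 2.91 and 3.17 CPM in female WT HDM libraries. Female KO libraries held 44.2 and 31.3 CPM when naive and 16.2 and 23.7 CPM with HDM. It fell 16.6-fold in female WT cultures (-4.06 ± 0.66, adjusted p = 0.000493, edgeR), while the difference of -0.92 ± 0.54 in female KO cultures did not pass the test (adjusted p = 0.319). Replicates of male cultures differed widely, at 102 and 32 CPM in WT naive, 75 and 29 CPM in WT HDM and 69.6 and 33.1 CPM in KO naive libraries, against 21.2 and 26.2 CPM in KO HDM libraries. The higher library of each of these male pairs, replicate 1 of WT naive, WT HDM and KO naive cultures, also held more of the 8 ciliated cell markers, at a summed 162 to 182 CPM against 78.8 to 92.2 CPM. Their part in the spread of Muc16 was not tested.

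Muc4, a membrane mucin that can bind ErbB2, lay at 216 and 189 CPM in female WT naive, 51.4 and 18.1 CPM in female WT HDM, 187 and 169 CPM in female KO naive and 126 and 155 CPM in female KO HDM libraries. Its fall in female WT cultures was 5.81-fold (-2.54 ± 0.47, adjusted p = 0.00112, edgeR). In female KO cultures the difference of -0.34 ± 0.43 did not pass the test (adjusted p = 0.674). Male libraries held 199 to 449 CPM. Muc20, its neighbour on chromosome 16, had the smallest fitted fall of the members in female WT cultures. It lay at 28.7 and 19.6 CPM in female WT naive and at 11.9 and 11.4 CPM in female WT HDM libraries, a fall of 2.07-fold (-1.05 ± 0.28, adjusted p = 0.00955). Female KO libraries held 23.5 and 19.9 CPM of Muc20 when naive and 10.2 and 14.1 CPM with HDM (-0.83 ± 0.27, edgeR adjusted p = 0.0757). This fall in KO cultures passed by DESeq2 (adjusted p = 0.0208). It also passed by edgeR with only the compared libraries (adjusted p = 0.00928) or with replicate number in the fit (adjusted p = 0.0176). It did not pass with upper-quartile scaling or with any library left out. Male libraries held 22.7 to 49.7 CPM of Muc20. The exons of Muc4 and Muc20 share 627 bases on opposite strands, which is 5.33% of the exon bases of Muc4 and 15.6% of those of Muc20, and with the strand setting of the counting not given, reads from these bases cannot be told apart.

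Muc15, another membrane mucin, was at 1 to 9 counts in all 16 libraries, that is 0.0273 to 0.363 CPM. A change in Muc15 was not detectable at this depth. Its highest values, 0.363 and 0.333 CPM, came from a female KO HDM and a female WT HDM library, which makes it the member whose female HDM libraries did not lie below the naive ones.

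Among the regulators, Agr2 lay at 76.5 and 78.8 CPM in female WT naive and at 1.5 and 1.85 CPM in female WT HDM libraries. The corresponding values in female KO libraries were 81.7 and 76.8 CPM and then 8.88 and 8.2 CPM. Replicates agreed closely in these groups, and the 3 levels (naive, KO HDM and WT HDM) did not overlap. Agr2 fell 46.6-fold in female WT (-5.54 ± 0.30, adjusted p = 2.81e-07, edgeR) and 9.28-fold in female KO cultures (-3.21 ± 0.24, adjusted p = 0.000133). In males Agr2 ranged from 47.5 CPM in a WT HDM library to 104 CPM in a KO naive library.

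Spdef lay at 3.92 and 3.17 CPM in female WT naive, 0.208 and 0.142 CPM in female WT HDM, 3.28 and 2.57 CPM in female KO naive and 0.404 and 0.394 CPM in female KO HDM libraries. Male libraries ranged from 2.84 to 5.68 CPM. Spdef fell 19.6-fold in female WT (-4.29 ± 0.38, adjusted p = 6.92e-06, edgeR) and 7.28-fold in female KO cultures (-2.86 ± 0.33, adjusted p = 0.000628), the former on 5 and 3 counts in the HDM libraries. Foxa3 was near the limit of detection, with 0.618 and 0.405 CPM in female WT naive libraries and 3 and 0 counts in the female WT HDM libraries. With both HDM libraries set at a floor of 3 counts, the mean naive level was 3.83 times as high. This ratio leaves out the spread between cultures, so neither it nor the fitted fold change is a lower bound. Foxa3 was called lower with HDM (edgeR adjusted p = 0.0171). That call was lost without female WT naive replicate 1 (adjusted p = 0.0726) or without female WT HDM replicate 2 (adjusted p = 0.107). In female KO cultures Foxa3 lay at 0.37 and 0.65 CPM when naive and 0.323 and 0.143 CPM with HDM, a difference that did not pass the test (-1.13 ± 0.66, adjusted p = 0.309). Male libraries held 0.331 to 1.07 CPM.

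Taking the set as a whole, 9 of the 9 tested members fell with HDM in female WT cultures, where 22.4% of all tested genes were called lower. In female KO cultures 5 of 9 fell (Muc5ac, Muc5b, Muc1, Agr2 and Spdef), where 5.77% of all tested genes were called lower. The median log2 fold change of the tested members was -4.06 in female WT and -2.19 in female KO cultures, beside -0.02 and -0.00485 over all tested genes. Without female WT naive replicate 1, or without female WT HDM replicate 2, the count in female WT cultures was 7, because Muc20 and Foxa3 no longer passed.

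In male cultures none of the 9 tested members was called by edgeR in the HDM response, either in WT or in KO, and the share of all tested genes called was 0% in both. None had an unadjusted p under 0.05 and DESeq2 called 0. The median log2 fold change of the members was -0.21 in male WT and 0.23 in male KO cultures. Muc16 in male KO cultures had the largest estimate, at -1.11 ± 0.54 (adjusted p = 0.781), and Muc5b in male WT cultures had -0.83 ± 0.44 (adjusted p = 0.936). The HDM and naive libraries of males, taken over both genotypes, overlapped for all 10 genes. Within male WT the HDM libraries lay below the naive ones for Muc1. Within male KO they overlapped for 4 of the 10, lay below for Muc5ac, Muc16 and Agr2 and lay above for Muc1, Muc20 and Foxa3. With so few libraries on each side, separation alone does not show a change, and its share over all genes was not counted.

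**Figure D2:**
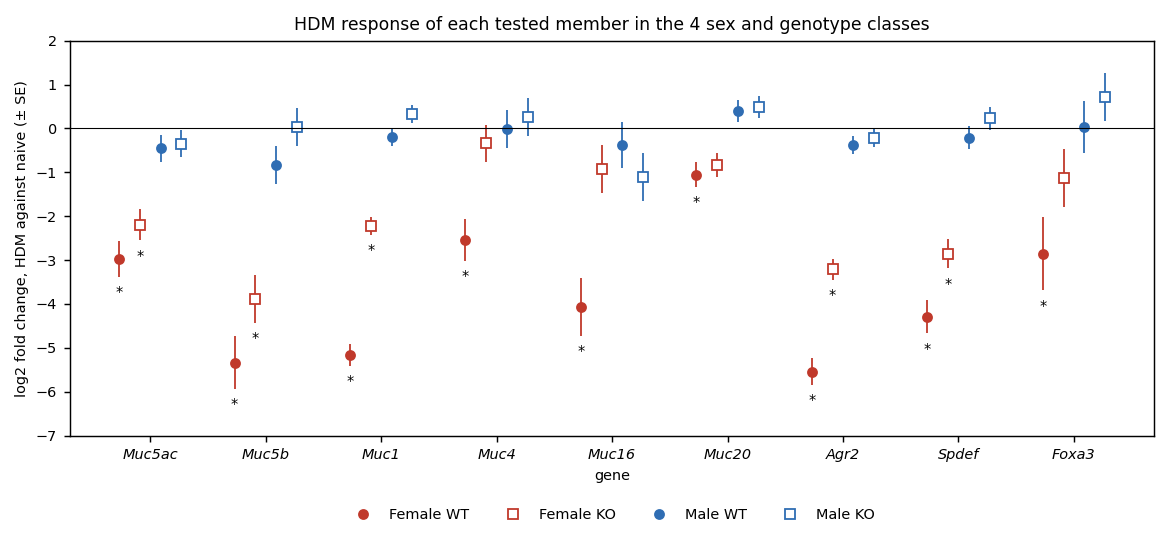
Fitted log2 fold change of HDM against naive cultures, with its standard error, for the 9 tested members in the 4 classes of sex and genotype, with an asterisk where the adjusted p was under 0.05. All 9 are called in female WT and 5 in female KO cultures, while the male estimates lie between -1.11 and 0.72 and none is called.

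The comparison of male with female cultures asks whether the sexes differ at the same genotype and treatment. Among naive cultures edgeR called 0 of the 9 tested members in WT, where 0.1% of all tested genes were called, and 0 in KO, where 0.188% were called. Of all 15993 tested genes, 1969 in WT and 1585 in KO had an unadjusted p under 0.05 by edgeR. Of the members 1 did in WT (Muc5ac, 0.97 ± 0.31 on the log2 scale) and 3 in KO (Muc1, Muc20 and Spdef). DESeq2 called 0 members in both. Under HDM all 9 tested members were higher in male WT than in female WT cultures, where 21.3% of all tested genes were called higher, and 7 were higher in male KO than in female KO cultures, where 12.9% were. The differences in WT ran from 1.82 ± 0.28 for Muc20 to 5.37 ± 0.30 for Agr2 on the log2 scale. In KO cultures Muc4 (1.15 ± 0.44, adjusted p = 0.0763, edgeR) and Muc16 (0.25 ± 0.54, adjusted p = 0.782) did not pass, and the largest difference was that of Muc5b at 4.61 ± 0.54 (adjusted p = 0.00021). The call for Foxa3 was lost without female WT HDM replicate 2 or male WT HDM replicate 2 in WT and without any of the 4 libraries in KO cultures, where the adjusted p then ran up to 0.208.

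Libraries labelled KO were compared with WT libraries within each sex and treatment. None of the 9 tested members was called in female naive, male naive or male HDM cultures, where edgeR called 0% of all tested genes each time. By the same test Lman1 itself was not called in female naive cultures (-3.26 ± 0.48, 9.61-fold lower, adjusted p = 0.403). Nor was it called in male naive (-1.65 ± 0.45, adjusted p = 0.879) or male HDM cultures (-0.96 ± 0.44, adjusted p = 0.274). Absence of a call in any of these comparisons therefore does not show that the genotypes are alike. Of all 15993 tested genes, 203, 867 and 2897 had an unadjusted p under 0.05 by edgeR in these comparisons. Of the 9 tested members 0, 0 and 2 did, the last being Muc1 and Muc5b. DESeq2 called 0, 0 and 1, the last being Muc1 in male HDM cultures (0.64 on the log2 scale, adjusted p = 0.0428, against 0.182 by edgeR), a comparison in which DESeq2 called 562 of all genes, or 4.58% of those with an adjusted p.

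Under HDM, 4 members were higher in female KO than in female WT cultures, where 14.9% of all tested genes were called higher. These were Muc1 (2.83 ± 0.23, 7.1-fold, adjusted p = 1.89e-05), Agr2 (2.36 ± 0.33, 5.12-fold, adjusted p = 0.000567), Muc4 (2.01 ± 0.46, 4.03-fold, adjusted p = 0.00779) and Muc16 (2.72 ± 0.65, 6.57-fold, adjusted p = 0.0101), all by edgeR. The gel-forming mucins did not pass, with 0.91 ± 0.70 for Muc5b (adjusted p = 0.353) and 0.87 ± 0.46 for Muc5ac (adjusted p = 0.172), nor did Spdef (1.15 ± 0.46, adjusted p = 0.104), Foxa3 (1.74 ± 0.95, adjusted p = 0.189) or Muc20 (0.06 ± 0.28, adjusted p = 0.891). Without female WT HDM replicate 2 or female KO HDM replicate 2 the count was 2, with Muc4 (adjusted p = 0.0663 and 0.0508) and Muc16 (adjusted p = 0.0784 and 0.0641) lost. All 4 libraries in this comparison held Lman1 RNA, at 101 and 117 CPM in WT and 66.6 and 78.1 CPM in KO.

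The difference between HDM responses was tested as an interaction. In WT, the male minus female difference was called positive for 8 of 9 tested members, against 12.8% of all tested genes. These members fell with HDM in females, while none was called in the male response. Among the differences were 5.16 ± 0.37 for Agr2 (adjusted p = 7.29e-06, edgeR), 4.96 ± 0.31 for Muc1 (adjusted p = 2.69e-06) and 4.52 ± 0.74 for Muc5b (adjusted p = 0.00145) on the log2 scale. Foxa3 did not pass (2.90 ± 1.05, adjusted p = 0.065). In KO, the difference was called positive for 4 of 9, against 1.77% of all tested genes. These were Muc5b (3.93 ± 0.68, adjusted p = 0.0137), Spdef (3.10 ± 0.42, adjusted p = 0.00586), Agr2 (2.99 ± 0.32, adjusted p = 0.00349) and Muc1 (2.55 ± 0.29, adjusted p = 0.00357), which also fell in females and were not called in males. Muc16 in KO cultures gave -0.20 ± 0.76 (adjusted p = 0.925). With only the compared libraries in the fit the count in WT was 6, since Muc4 (adjusted p = 0.065) and Muc20 (adjusted p = 0.063) no longer passed. The call for Muc5b in KO was lost without male KO naive replicate 1, male KO HDM replicate 2, female KO naive replicate 1 or either female KO HDM library (adjusted p up to 0.0716), and that for Muc20 in WT (1.44 ± 0.38, adjusted p = 0.0175) without male WT naive replicate 2, male WT HDM replicate 1, female WT naive replicate 1 or female WT HDM replicate 2 (adjusted p up to 0.0757).

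Between genotypes, the fall with HDM was smaller in female KO than in female WT cultures for 4 of 9 tested members, against 6.16% of all tested genes. These were again Muc1 (2.94 ± 0.30, adjusted p = 0.000269, edgeR), Agr2 (2.33 ± 0.40, adjusted p = 0.00538), Muc16 (3.14 ± 0.84, adjusted p = 0.0374) and Muc4 (2.20 ± 0.63, adjusted p = 0.0451). The last 2 were close to the threshold, and leaving out any of the 8 female libraries left 2 or 3 calls, with Muc1 and Agr2 called each time. The male responses of KO and WT did not differ for any tested member by edgeR (0% of all tested genes called, 0 members at an unadjusted p under 0.05, 0 by DESeq2), with estimates from -0.74 ± 0.75 for Muc16 to 0.87 ± 0.61 for Muc5b. These comparisons share control libraries with the others, so they are not separate evidence.

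**Figure D3:**
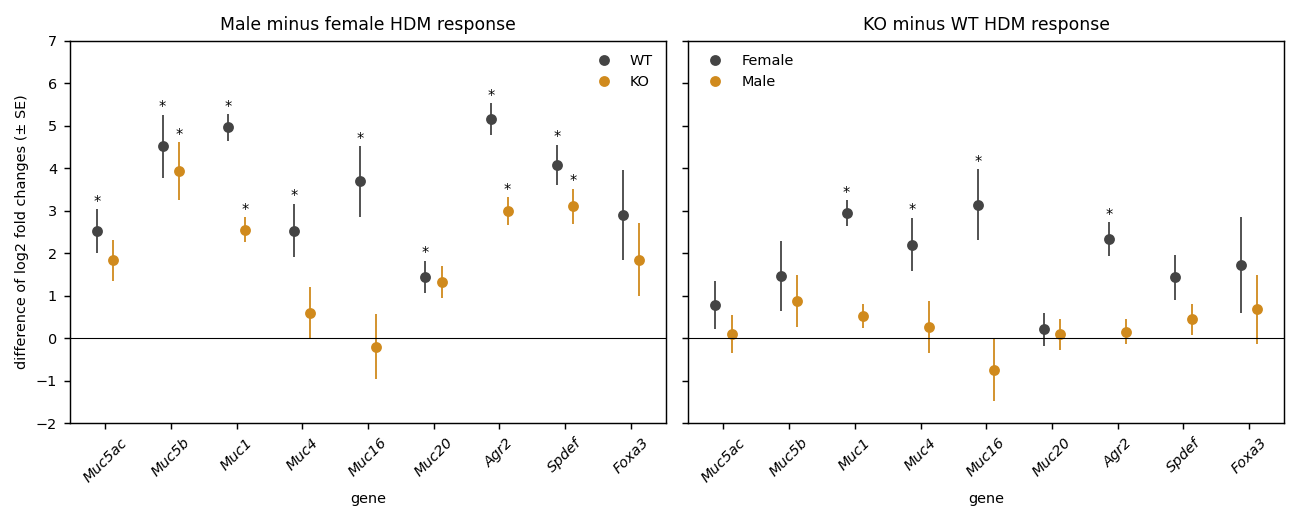
Differences between HDM responses on the log2 scale, with standard errors, for the 9 tested members: male minus female at left, in WT and KO, and KO minus WT at right, in females and males, with an asterisk where the adjusted p was under 0.05. Marked points number 8 and 4 at left, and 4 and 0 at right, where they are Muc1, Muc4, Muc16 and Agr2 in females.

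Other genes of mucus production were taken as 5 lists, whose counts stand beside 22.4% of all tested genes called lower and 20.6% called higher in the HDM response of female WT cultures, and 5.77% lower and 4.63% higher in that of female KO cultures. Of 14 products of goblet cells, 10 were tested, and 9 fell with HDM in female WT cultures and 4 in female KO cultures, with none higher and medians of -3.27 and -1.75 on the log2 scale. Qsox1, a disulfide-forming oxidase, had -2.24 ± 0.14 in female WT (adjusted p = 8.21e-07, edgeR) and -1.35 ± 0.14 in female KO cultures (adjusted p = 0.000395). Sytl2, a Rab27 effector of granule transport, had -2.80 ± 0.25 (adjusted p = 8.88e-06) and -0.83 ± 0.22 (adjusted p = 0.0359). This list thus moved in the same direction as the members in females.

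The enzymes that build the O-glycans of mucins held calls in both directions. Of 22 tested among 23, 9 fell and 6 rose in female WT cultures (median -0.37), and 4 fell and 2 rose in female KO cultures (median -0.18). Galnt5 and Galnt18, members of the family of transferases that start O-glycans, had -4.52 ± 0.30 (adjusted p = 9.44e-07, edgeR) and -2.43 ± 0.17 (adjusted p = 1.58e-06) in female WT cultures, and -1.25 ± 0.23 (adjusted p = 0.0063) and -0.58 ± 0.16 (adjusted p = 0.0417) in female KO cultures. The machinery of mucin granule exocytosis was called at shares near those of all genes, with 3 of 13 tested lower and 4 higher in female WT (median 0.26) and 1 lower and 0 higher in female KO cultures (median -0.05). Rab27a, a GTPase of granule docking, fell by 2.99 ± 0.13 on the log2 scale in female WT cultures (adjusted p = 8.58e-08), and Rab3d, another granule GTPase, fell by 1.04 ± 0.13 (adjusted p = 0.000105).

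Receptors and transcription factors upstream of goblet cell genes numbered 13, all tested, of which 9 fell and 3 rose in female WT (median -0.70) and 3 fell and 1 rose in female KO cultures (median -0.24). The epithelial ETS factor Elf3 had -1.89 ± 0.14 (adjusted p = 2.34e-06, edgeR) and -0.57 ± 0.14 (adjusted p = 0.0222), and the forkhead factor Foxa1 had -1.10 ± 0.09 (adjusted p = 6.27e-06) and -0.53 ± 0.09 (adjusted p = 0.00496). Other genes named mucins or sialomucins were mostly too low, with 4 of 11 tested. Of these, 2 fell and 1 rose in female WT cultures and none passed in female KO cultures. Mcam, an adhesion molecule also called MUC18, rose by 2.12 ± 0.31 in female WT cultures (adjusted p = 0.000259), and Cd164 fell by 0.48 ± 0.10 (adjusted p = 0.00221). No gene of these 5 lists was called in either HDM response of males, where edgeR called none of all tested genes.

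**Figure D4:**
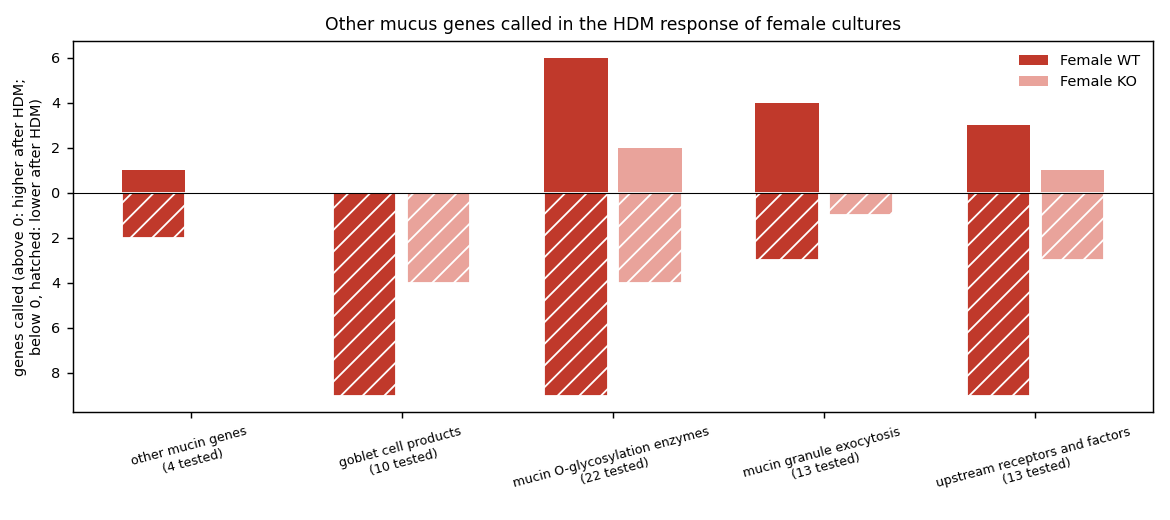
Number of genes called in the HDM response of female WT and female KO cultures in 5 lists of other mucus genes, with genes higher after HDM above 0 and genes lower, hatched, below 0. Goblet cell products are called only as lower (9 and 4 of 10 tested), while the glycosylation (6 higher and 9 lower in WT) and exocytosis lists (4 higher and 3 lower) hold both directions.

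Markers of the other cell types of these cultures also moved in the female HDM libraries. Counts for every marker list stand beside 22.4% of all tested genes called lower and 20.6% called higher in the female WT response. In the female KO response these shares were 5.77% and 4.63%. All 5 club cell markers fell in female WT cultures and 3 of 5 in female KO cultures, and their summed level was 3764 to 4654 CPM in female WT HDM and 7228 to 7877 CPM in female KO HDM libraries against 13132 to 17359 CPM in the female naive libraries. The club cell secretoglobins Scgb3a1 and Scgb3a2 had -5.94 ± 0.51 (adjusted p = 6.2e-06, edgeR) and -6.00 ± 0.52 (adjusted p = 6.54e-06) in female WT cultures. Of 5 basal cell markers, 4 fell in female WT and 0 were called in female KO cultures. Against 6.16% of all tested genes called higher, the KO minus WT difference of female responses was called for 4 of the 5 basal markers. Their sums were 1969 to 3976 CPM in female WT HDM against 9462 to 10333 CPM in female WT naive libraries, and 10148 to 12758 CPM in female KO HDM against 9684 to 10939 CPM in female KO naive libraries. The basal markers Ngfr and Krt15 had -3.17 ± 0.16 (adjusted p = 2.05e-07) and -4.63 ± 0.31 (adjusted p = 9.52e-07) in the female WT response.

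Of 8 ciliated cell markers, 4 fell in female WT and 1 in female KO cultures, Rsph1 in both (-1.96 ± 0.40, adjusted p = 0.00235, and -1.51 ± 0.39, adjusted p = 0.0295, edgeR) and Tekt1 in WT (-5.26 ± 1.15, adjusted p = 0.00331). Their sums were 105 to 119 CPM in female WT HDM and 77 to 84.7 CPM in female KO HDM libraries, against 121 to 163 CPM in female naive libraries. Such low sums were also found in males, whose libraries ranged from 78.7 to 182 CPM, with KO HDM at 78.7 and 80.1 CPM. Of 6 tested squamous markers, 2 fell and 1 rose in female WT and none passed in female KO cultures. They summed to 468 to 675 CPM in female WT HDM and 1835 to 2386 CPM in female KO HDM libraries, with Krt13 at -2.81 ± 0.42 (adjusted p = 0.000306) and Krt4 at -2.82 ± 0.46 (adjusted p = 0.000523) in the female WT response. Beside 20.6% and 4.63% of all tested genes called higher, 2 of 8 fibroblast markers were called higher in female WT and none in female KO cultures. They were uneven between replicates, at a summed 49.4 and 598 CPM in female WT HDM and 27.4 and 547 CPM in female WT naive libraries, with Lum at 4.60 ± 1.25 (adjusted p = 0.0114) and Dcn at 3.39 ± 1.14 (adjusted p = 0.0315). Replicate 2 carried these calls, since Dcn lay at 2.25 and 45.9 CPM and Lum at 1.04 and 28 CPM in the female WT HDM libraries against 2 and 2.56 CPM and 0.254 and 0.877 CPM in the naive ones. Of 5 tested leukocyte markers, 2 fell in female WT and 1 in female KO cultures. The myeloid markers Lyz2 (-1.55 ± 0.18, adjusted p = 4.2e-05) and Cd68 (-1.32 ± 0.24, adjusted p = 0.00116) fell in female WT cultures, and the T cell marker Cd3e had 0 counts in both libraries of 7 of the 8 groups. The part of these shifts in the members' changes was not tested. All 5 club cell and all 5 basal cell markers were detected in every group.

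**Figure D5:**
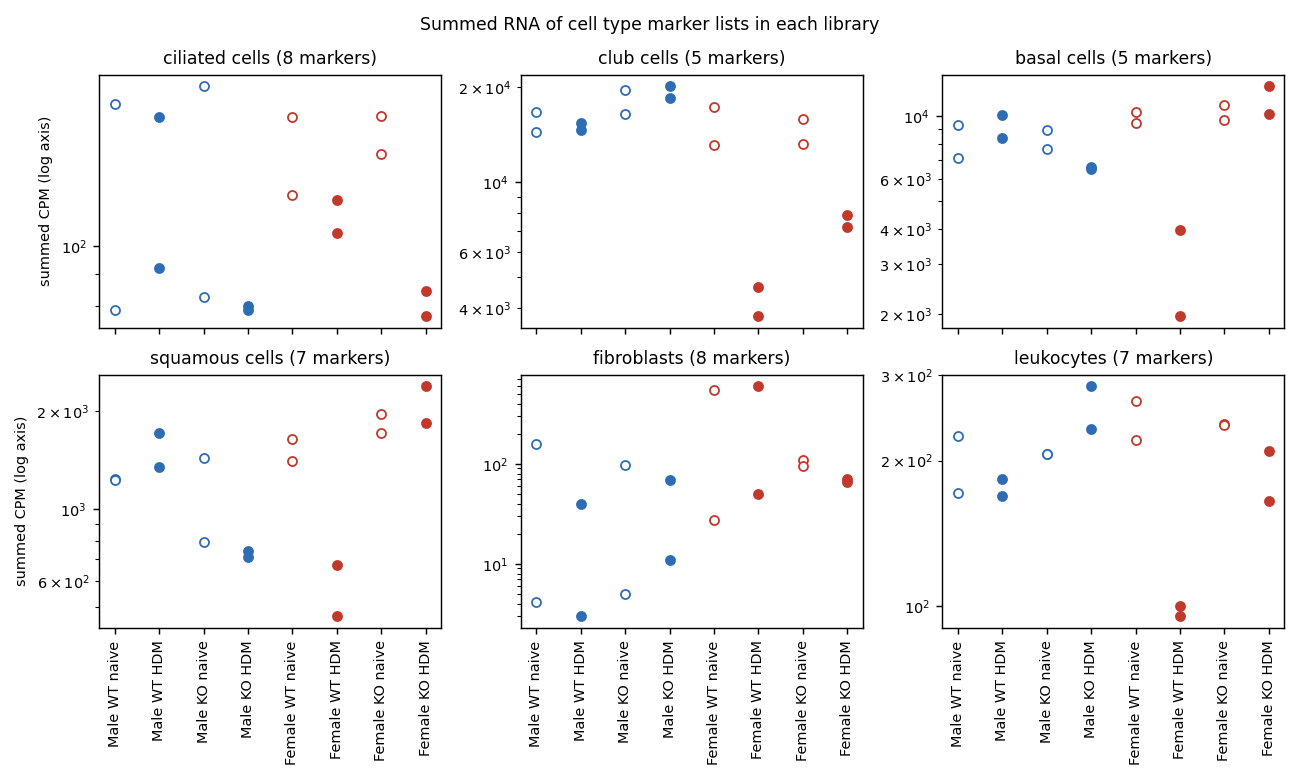
Summed CPM, on a log axis, of 6 lists of cell type markers in each library by group, with open points for naive and filled points for HDM cultures, blue for male and red for female. Club cell sums are lowest in the 4 female HDM libraries, at 3764 to 7877 CPM, and basal cell sums are lowest in the female WT HDM libraries, at 1969 and 3976 CPM.

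The genes whose levels most resembled those of the gel-forming mucins over the 16 libraries were found among 11533 protein-coding genes, by Pearson's r of log2 CPM. For Muc5ac these were Lbp (0.977), Appl2 (0.975), Atp6v1b1 (0.969), Fcgbp (0.967) and Asph (0.963). For Muc5b they were Adm (0.982), Elf5 (0.98), Arhgap44 (0.98), Tmc5 (0.978) and AI467606 (0.977). The libraries fall into the 4 female HDM libraries and the rest, so these values describe that split. By Spearman's rank correlation 1 of the 5 genes for Muc5ac (Appl2) and 0 of the 5 for Muc5b remained among the first 5.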

How the data were processed

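For 16 mRNA libraries of MTECs, the authors deposited unnormalized read counts for each Ensembl identifier. The submitters' processing notes name Trimmomatic 0.36, STAR 2.5.2b, featureCounts from Subread 1.5.2, DESeq2 and the build GRCm38. The strand setting and the treatment of reads with several matches are not given in the sources used here. Identifiers were matched to GENCODE M21 on GRCm38 (49056 of 49315 matched). Where a symbol had 2 identifiers, that with the longer exons was used.

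Libraries, at 21860698 to 43442188 counts, were grouped by sex, genotype and treatment from their titles. Genes were filtered with filterByExpr, scaled by TMM and fitted in edgeR 4.0.16 (R 4.3.3) as 8 group means, with a quasi-likelihood test of 15993 genes for each of 16 comparisons. Tests were two-sided, and genes with a Benjamini-Hochberg adjusted p under 0.05 over all tested genes were called. The notes name DESeq2 without a role, and the paper's methods state no test for these counts. The floor was set at 3 counts per library and covers counting error only. Levels between genes are CPM per kilobase of merged exons.

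The members and lists were chosen with earlier results of these data known. All 10 members and Lman1 are named, of each list the 2 genes with the smallest p in the HDM response of female WT cultures, and for Muc5ac and Muc5b the 5 protein-coding genes of highest Pearson's r whose log2 CPM (pseudocount 2) averaged 2 or more. Alternatives were DESeq2 1.42.0, upper-quartile scaling, no filter, only the compared libraries, a replicate block, leaving out each library, and Spearman's correlation. The fits were tested on simulated data. Tables and figures were made with Python 3.11.15, numpy 2.4.6, pandas 2.3.3 and matplotlib 3.10.9.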

Additional observations from a re-analysis of the deposited data

Results flagged for a closer look

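Several members met the test of a difference between HDM responses, an interaction in edgeR's quasi-likelihood model with a Benjamini-Hochberg adjusted p under 0.05. Values are differences of log2 fold changes. The groups hold 2 libraries each, too few to look for a library far from the others.

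In WT cultures, male and female responses differed for Muc1 (4.96), Muc5ac (2.52), Muc5b (4.52), Muc16 (3.69), Agr2 (5.16), Muc4 (2.53), Muc20 (1.44) and Spdef (4.08). Each was called lower with HDM in female WT cultures, and none was called in male WT cultures, where Muc20 had 0.40 ± 0.26. In KO cultures male and female responses differed for Muc1 (2.55), Muc5b (3.93), Agr2 (2.99) and Spdef (3.10). Between female KO and female WT cultures the responses differed for Muc1 (2.94), Muc16 (3.14), Agr2 (2.33) and Muc4 (2.20). The label of the KO HDM libraries in this last comparison is in doubt. They held 55.3% and 64.8% of the WT mean of Lman1, and what share of the difference goes with the genotype was not tested.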

How the results depend on the processing

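Upper-quartile scaling changed no call of a member, and no called value changed sign under any alternative. DESeq2 added 4 calls over all comparisons and lost none. Muc20 was added in the female KO HDM response, and Muc5ac and Muc20 in male minus female HDM response of KO. Muc1 was added for KO minus WT in male HDM cultures, where DESeq2 called 1 member against 0. Without the filter on low counts 30 calls were added. Members called then numbered 8 in the female KO HDM response, 1 and 2 in the male WT and male KO HDM responses, 3 and 6 in male minus female of naive WT and KO cultures, 1 and 4 in KO minus WT of female naive and male HDM cultures, 7 in male minus female HDM response of KO, and 3 in KO minus WT HDM response of males. The share of all fitted genes called without the filter was 9.24%, 0.507% and 2.4%, 2.19% and 2.92%, 0.459% and 6.45%, 6.73% and 2.27% in the same order. The cause was not tested. With only the compared libraries 5 calls were gained and 3 lost (Foxa3 in the female WT HDM response, Muc4 and Muc20 in male minus female HDM response of WT). Foxa3 (in 2 comparisons) and Spdef (in 1) did not pass the filter on those libraries. For the fits below that leave out 1 library, the share of all tested genes called was not counted.

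Leaving out 1 library, with the lone culture of that group assumed to vary like the other groups, gave 7 to 9 members in the female WT and 5 in the female KO HDM response and 0 in the male responses. Male minus female gave 8 to 9 in WT HDM, 6 in KO HDM and 0 in naive cultures. KO minus WT gave 2 to 4 in female HDM and 0 in the other cultures. The interactions gave 7 to 9 (sex, WT), 3 to 4 (sex, KO), 2 to 3 (genotype, females) and 0 (genotype, males).

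The labels give same-numbered replicates nothing but a number in common. Their deviations correlated across genes at 0.36, -0.202, 0.658 and -0.0283 in the HDM responses of female WT, female KO, male WT and male KO cultures, and at -0.333 to 0.504 in the sex and genotype comparisons, so the numbers were not taken as pairs. Fibroblast marker sums were higher in replicate 2 in 5 groups (among them 4.11 and 158 CPM in male WT naive, 2.99 and 39.9 CPM in male WT HDM), and whether same-numbered cultures share a source was not tested. A fit with the replicate block called 9 and 6 members in the female WT and female KO HDM responses and 0 in both male responses. It called 45.6% and 13.4% of all tested genes in these female responses, against 43.1% and 10.4% without the block, and 0% in the male ones. Over all comparisons the block gained 4 calls of members and lost 2 (Foxa3 in both male minus female HDM comparisons, edgeR adjusted p = 0.0568 and 0.079).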
